A study of Mus musculus with 14 samples.

Results

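The miR-290 to miR-295 cluster of mouse chromosome 7 is a group of miRNA stem-loops that lie close together on one strand and are highly expressed in embryonic stem cells (ESCs). The members described here are 6 miRNA genes, Mir290a, Mir291a, Mir292, Mir291b, Mir294 and Mir295, and their sites are all those to which the deposited site annotation gives one of these names. In the Drosha experiment 11 of 3919 pile-up sites belong to the cluster, and in the Dicer experiment 7 of 4666, of which all 7 are also among the 2595 sites found in both. A pile-up site is a position at which many sequenced fragments share the same first base. Mir293, which lies between Mir291b and Mir294, has no site in either table.

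Degradome-seq was performed on polyA-tailed RNA, with a linker ligated to ends that carry a 5′ monophosphate (5′P), so the first base of a read marks a cut end. The Drosha libraries came from Drosha fl/fl Gt(ROSA)26SorCreERT2 ESCs, in which CreERT2 is expressed from the Rosa26 locus and both Drosha alleles carry loxP sites. The 2 control libraries were from untreated cells, so the control cells did not receive 4-hydroxytamoxifen, and the 2 Drosha-deficient libraries were from cells given 100 nM 4-hydroxytamoxifen for 72 h and then cultured without it for 48 h. The Dicer libraries came from Dicer fl/fl ESCs carrying a retrovirus with a GFP reporter alone (2 control libraries) or with GFP and Cre (2 Dicer-deficient libraries), sorted for GFP 3 days after infection and grown for 2 more days. RNA-seq was done in 3 control and 3 Drosha-deficient libraries of the Drosha line. All cells were grown on inactivated mouse embryonic fibroblasts, and the RNA-seq table lists all 6 ESC markers looked for at a mean log2 CPM from 6.56 (Klf4) to 9.78 (Pou5f1) and all 6 fibroblast markers at one from −0.63 (Lum) to 6.60 (Col1a1). These means cover all 6 libraries, so the part of feeder cells in the comparisons was not tested.

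In the canonical pathway, the nuclear RNase III enzyme Drosha, with its partner Dgcr8, cuts both strands near the base of a stem-loop in the primary transcript and frees a precursor hairpin. Dicer then removes the loop of that hairpin in the cytoplasm, downstream of the Drosha cut. The fragment left on the 3′ side of the Drosha cut keeps the polyA tail and carries a 5′P, which is why the assay can record it. The miR-290 to miR-295 miRNAs are known as ESC miRNAs that promote rapid cell cycling, and several share a seed, the stretch of bases that pairs with target mRNAs.

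Mature 3p miRNAs of the members are shown because the seed groups them and because their 3′ ends mark where the precursor hairpin stops. RefSeq (GRCm38.p6) gave a 3p sequence for 5 of the 6 members, and the seed, bases 2 to 8, is in capitals.
miR-290a-3p: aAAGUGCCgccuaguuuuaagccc
miR-291a-3p: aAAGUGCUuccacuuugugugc
miR-291b-3p: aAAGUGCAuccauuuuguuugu
miR-294-3p: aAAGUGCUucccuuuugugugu
miR-295-3p: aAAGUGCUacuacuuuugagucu
All 5 share bases 2 to 7, and miR-291a-3p, miR-294-3p and miR-295-3p share the whole seed. The miR-290a-3p and miR-291b-3p seeds differ from theirs at base 8.

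Each member had 1 deep site, called the main site here because it had the highest mean depth in the control libraries. The genome around the main sites is shown to make the cut position visible, as 40 bases of the plus strand of chromosome 7 (GRCm38), with 10 bases before the site and 30 from it on. The first 3 bases of the captured fragment are in capitals.
Mir290a, chr7:3218688-3218727: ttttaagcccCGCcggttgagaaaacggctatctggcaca
Mir291a, chr7:3218980-3219019: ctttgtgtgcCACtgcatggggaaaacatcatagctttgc
Mir292, chr7:3219252-3219291: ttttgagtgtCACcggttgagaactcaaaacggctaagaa
Mir291b, chr7:3219541-3219580: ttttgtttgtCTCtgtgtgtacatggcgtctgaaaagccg
Mir294, chr7:3220703-3220742: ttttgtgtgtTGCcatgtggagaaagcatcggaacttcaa
Mir295, chr7:3220828-3220867: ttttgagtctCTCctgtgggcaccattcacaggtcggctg
At all 5 members with a RefSeq 3p sequence, the main site was the first base after the 3′ end of the 3p miRNA. The authors trained their site classifier on such positions of known miRNAs, so this agreement in position is partly built into the choice of sites.

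Whole stem-loops are shown for the member at each end of the cluster and for Mir291b, which had the deepest minor site. They are RefSeq hairpins, with the part from the main site on in capitals.
Mir290a, chr7:3218626-3218708: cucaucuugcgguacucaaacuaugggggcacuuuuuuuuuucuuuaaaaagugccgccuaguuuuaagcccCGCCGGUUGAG
Mir291b, chr7:3219482-3219560: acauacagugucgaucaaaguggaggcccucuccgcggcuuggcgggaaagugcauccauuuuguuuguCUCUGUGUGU
Mir295, chr7:3220773-3220841: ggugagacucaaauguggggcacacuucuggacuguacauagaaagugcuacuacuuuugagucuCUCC
The main sites leave 11, 10 and 4 bases of these annotated stem-loops on the captured side.

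Along the transcript, the main site of Mir291a lies 292 nt after that of Mir290a, Mir292 a further 272 nt, Mir291b 289 nt, Mir294 1162 nt and Mir295 125 nt. The whole span from the first to the last main site is 2140 nt. RefSeq places the lncRNA D7Ertd143e at positions 3218784 to 3221015 of the same strand, and 5 of the 6 main sites fall inside it. The main site of Mir290a lies 86 nt before its start, and that of Mir295 lies 177 nt before its end.

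Depth is given as RPM, the reads that start at a site scaled to a common number of mapped reads per library. The libraries held between 28682300 and 34547609 mapped reads, and 3 reads, taken here as the lowest count that can be read, correspond to 0.0868 to 0.105 RPM. These totals count uniquely and multiply mapped reads together. Uniquely mapped reads made up 62.4% and 58.2% of them in the Drosha-line controls and 73.1% and 71.3% in the Drosha-deficient libraries. The scale of RPM therefore differs between the groups compared. The mapped reads were inferred from the spacing of the low RPM values, and RPM times mapped reads was then whole, within 0.1 read, at all values up to 60 reads in each library. The lowest value above 0 was 2 reads in the first Drosha-line control and the first Dicer-deficient library and 1 read in the other 6, and the first Dicer-line control had only 46 sites of up to 20 reads. A check that takes the lowest value as the worth of 1 read therefore did not recover whole reads in the first Drosha-line control and the first Dicer-deficient library. The first Dicer-line control did not pass it because it had too few low values. PCR reads carry no molecular identifiers here, so intervals from read counts cover counting error only. Nothing in the labels says that replicates came from separate cultures, and p-values measure the spread between these libraries. Neither Drosha nor Dicer1 has a site in the degradome tables, so the deleted gene could not be checked in each library. By qRT-PCR the paper reports loss of Drosha expression and of canonical miRNAs, and loss of miRNAs after inactivation of Dicer1. In the bulk libraries, fewer cleaved transcripts per cell and fewer cells with the transcript cannot be told apart.

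In Drosha-line control cells the last member was the deepest and the first came next. Captured sequences at Mir294 and Mir295 also occur elsewhere in the genome, as given below, so their places in the order are uncertain to that extent. Mir295 had 660 and 704 RPM in the 2 control libraries and Mir290a 618 and 421 RPM. Both lay above the 4 members between them in each control library, and they did not overlap with each other. Mir294 had 275 and 181 RPM, Mir291b 142 and 189 RPM, Mir291a 136 and 127 RPM, and Mir292 119 and 78.5 RPM. Mir294 and Mir291b, which changed places between the 2 libraries, overlapped, whereas the remaining neighbours in the order did not overlap.

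Dicer-line control cells showed the same first and last places but a shallower Mir290a. Mir295 had 1009 and 575 RPM, Mir290a 348 and 215 RPM, and Mir294 219 and 185 RPM. Mir291a followed with 203 and 153 RPM, Mir291b with 165 and 121 RPM, and Mir292 with 103 and 108 RPM. Mir295 stood clear of Mir290a and Mir292 stood clear below Mir291b, and the neighbours in between overlapped. Depth therefore did not rise or fall steadily along the transcript in either line.

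**Figure D1:**
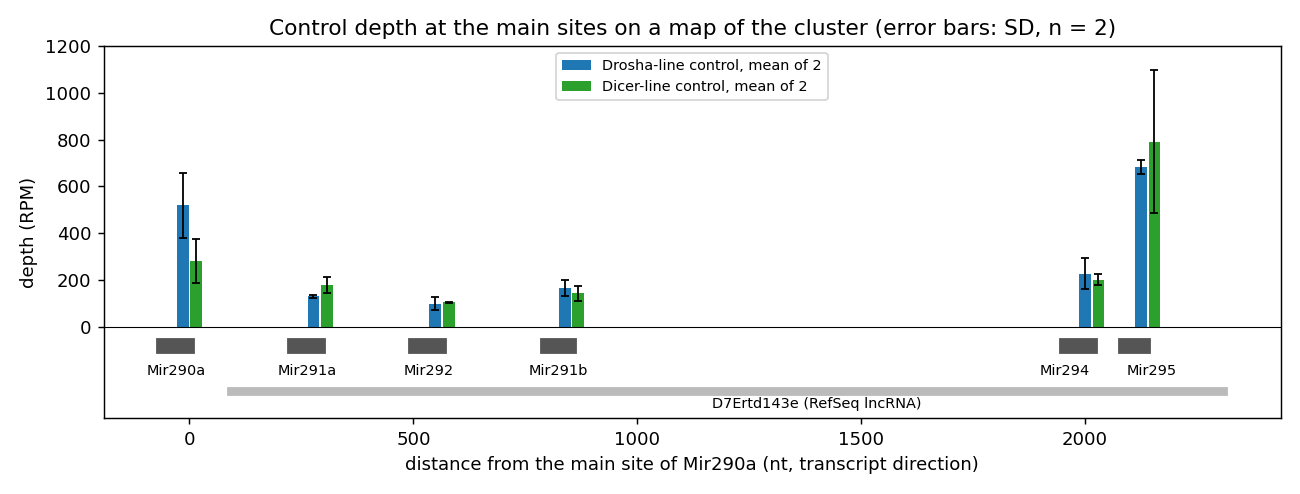
Mean depth (RPM, bars from 0, SD over 2 libraries) at the 6 main sites in control cells of both lines, against distance in nt from the main site of Mir290a. Dark boxes are the annotated stem-loops and the grey bar is D7Ertd143e. Mir290a and Mir295, the members at the ends, carry the highest bars in both lines.

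Between the 2 control groups no member site passed the test. The log2 difference of the Drosha-line controls from the Dicer-line controls was largest in size at Mir290a, 0.90 (SE 0.37, unadjusted p = 0.039, FDR = 0.10 by limma), with both Drosha-line libraries above both Dicer-line libraries. At the other main sites it ran from −0.43 at Mir291a to 0.22 at Mir291b. Of all 2595 shared sites, 15.7% were called at an FDR under 0.05 and a log2 difference past 1.5 in size, against 0 of 7 member sites (1 of 7 at an unadjusted p under 0.05). Line, virus and cell sorting differ together here and cannot be told apart.

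Depth was lower in Drosha-deficient than in control cells at all 6 main sites. Exposure to 4-hydroxytamoxifen and Cre activity differ together with the loss of Drosha here and cannot be told apart. At Mir290a, the first member, the Drosha-deficient libraries had 28.97 and 48.79 RPM, against 618 and 421 RPM in control cells. The mean fell from 519 ± 139 to 38.9 ± 14.02 RPM (SD, n = 2 each), a log2 fold change of −3.76 (SE 0.35, FDR = 3.84e-06 by limma). All Drosha-deficient values lay under all control values at this site. At Mir295 the Drosha-deficient libraries had 131 and 154 RPM, and the log2 fold change of −2.26 (SE 0.32) was the smallest of the 6.

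The members between them fell by intermediate amounts. Mir292 fell from 98.7 ± 28.5 to 13.7 ± 1.36 RPM (SD, n = 2), with 14.6 and 12.7 RPM in the Drosha-deficient libraries. Mir291b had 24.8 and 30.6 RPM there and Mir294 45.7 and 36.2 RPM. Mir291a, which shares its seed with Mir294 and Mir295, had 19.8 and 31.9 RPM. Their log2 fold changes were −2.81, −2.57, −2.45 and −2.38, and the FDR by limma was 3.22e-05 or lower at every main site. The Drosha-deficient libraries therefore kept between 0.0739 and 0.209 times the control depth at the main sites on the log2 scale with a pseudocount of 0.1 RPM.

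**Figure D2:**
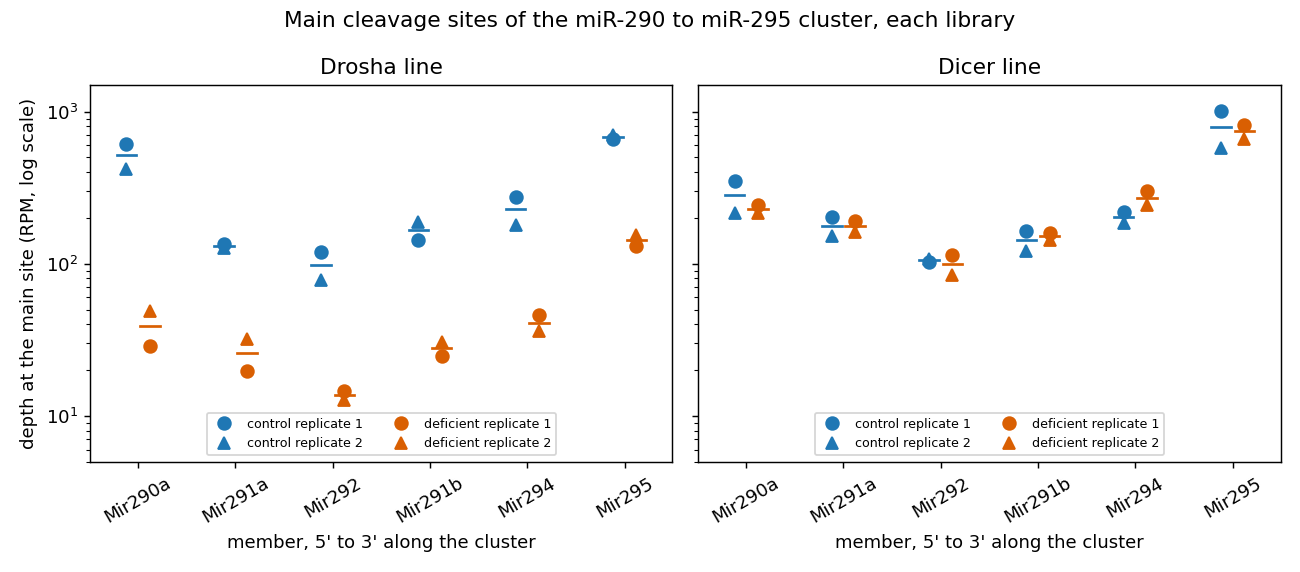
Depth (RPM, log scale) at the main site of each member in all 8 degradome libraries, members in transcript order, circles and triangles marking replicates 1 and 2 and short lines the means. In the Drosha line every orange point (Drosha-deficient) lies under every blue point (control) of its member, and in the Dicer line the colours mix at all members but Mir294.

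Counting all sites, 10 of 11 member sites were called decreased (FDR under 0.05 and log2 fold change under −1.5), against 37.6% of all 3919 sites and 54 of 80 sites of other miRNA genes. Every site of the table had to be accepted by the classifier in both control libraries, with no condition set on the Drosha-deficient ones. Part of a lower Drosha-deficient value can therefore come from that choice, most of all at shallow sites. The control libraries lay entirely above the Drosha-deficient ones at 11 of 11 member sites, at 70 of 80 sites of other miRNA genes and at 59.9% of all sites. Log2 fold changes had a median of −2.45 at the member sites, −1.91 at sites of other miRNA genes and −0.93 at all sites together. Since the typical site also fell, changes relative to the median of all sites are smaller: −2.83 at Mir290a and −1.33 at Mir295.

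The scaling of the libraries decided 2 of these calls at main sites. With each library centred on its median site, all 6 main sites remained called, from −3.16 at Mir290a to −1.67 at Mir295, with 9 of 11 member sites called against 22.2% of all sites. edgeR on the recovered whole reads with TMM factors, a choice added after the data were seen, moved the median of all sites to −0.03 and called 7 of 11 member sites against 16.2% of all sites. Under it the main sites of Mir291a (−1.38) and Mir295 (−1.32) had an FDR of 0.0075 and 0.0056 but missed the fold threshold, while Mir290a (−2.74), Mir292 (−1.89), Mir291b (−1.66) and Mir294 (−1.53) passed. With the mapped reads as library sizes in place of TMM, edgeR called 10 of 11 member sites against 38.9% of all sites. With uniquely mapped reads as library sizes, limma called 10 of 11 member sites and 1707 of 3919 sites lower. The main sites then ran from −4.02 at Mir290a to −2.52 at Mir295, and the median of all sites was −1.20.

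**Figure D3:**
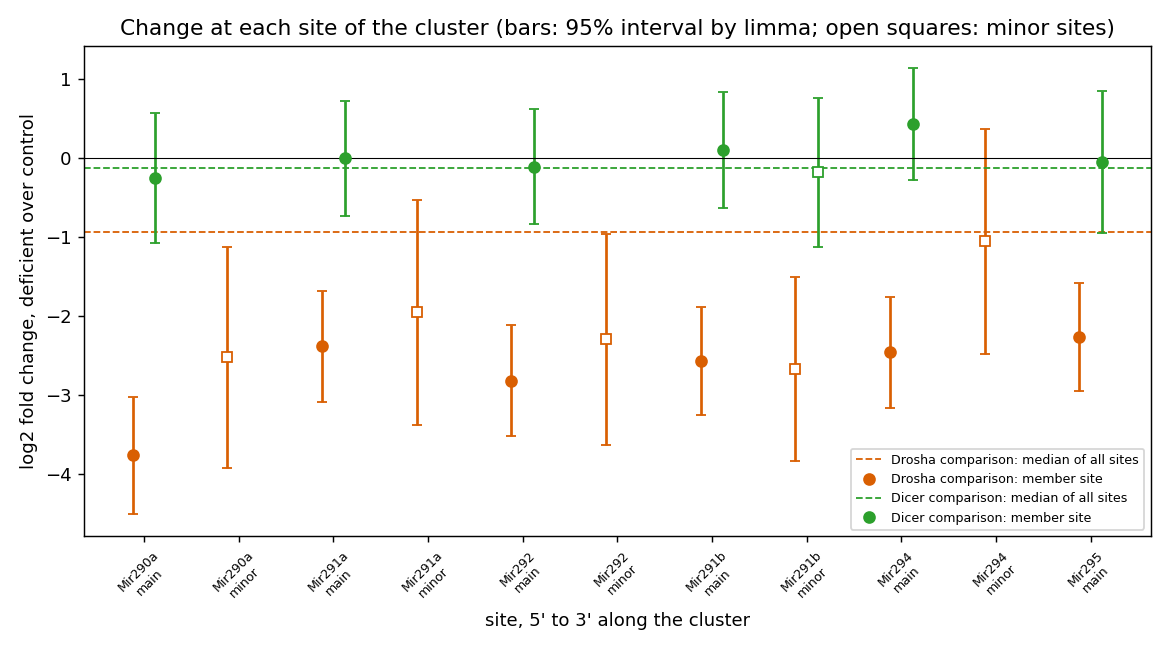
Log2 fold change (deficient over control) with its 95% interval by limma at each of the 11 sites in the Drosha comparison (orange) and the 7 in the Dicer comparison (green), with filled circles for main and open squares for minor sites. Dashed lines are the medians of all sites, −0.93 and −0.12. The orange main sites all lie under their dashed line, with Mir290a lowest, and the green intervals all cross 0.

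The cluster as a whole took most of the depth at miRNA sites. Its sites summed to 1954 and 1705 RPM in the Drosha-line controls, which is 73.9% and 68.1% of the depth at all sites of miRNA genes. In Drosha-deficient cells the sum was 265 and 315 RPM, or 51.0% and 58.1%. The control mean was 6.31 times the Drosha-deficient mean. An exact two-sided permutation test gave p = 0.33, the smallest that 2 against 2 libraries allow. In the Dicer line the sum was 2050 and 1359 RPM in control and 1832 and 1518 RPM in Dicer-deficient cells, from 69.0% to 76.4% of the depth at miRNA sites, and the groups overlapped.

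Within the cluster, the balance between the first and the last member differed between the Drosha-line groups. Mir290a held 31.6% and 24.7% of the summed depth of the cluster in control and 10.9% and 15.5% in Drosha-deficient cells. Mir295 held 33.8% and 41.3% in control and 49.3% and 49.0% in Drosha-deficient cells. For each member the groups did not overlap. The log2 ratio of Mir290a to Mir295 within a library was −0.10 and −0.74 in control and −2.18 and −1.66 in Drosha-deficient cells, a difference of −1.499, which in an exact permutation test also gave p = 0.33, the smallest possible.

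In the Dicer line the same balance differed by less. The Mir295 share overlapped between the groups there, at 49.2% and 42.3% in control and 44.7% and 43.8% in Dicer-deficient cells. The Mir290a share was 16.99% and 15.82% in control and 13.3% and 14.2% in Dicer-deficient cells, without overlap. The log2 ratio of Mir290a to Mir295 was −1.53 and −1.42 in control and −1.74 and −1.63 in Dicer-deficient cells, also without overlap. The difference in the ratio was −0.21, and the exact permutation test gave p = 0.33 here too, the smallest possible. These ratios lie nearer to those of the Drosha-deficient libraries than to those of the Drosha-line controls. The remaining members had shares whose group means moved by less than 5 percentage points in either line. The largest of these moves was at Mir294 in the Dicer line, from 12.1% ± 2.09 to 16.3% ± 0.29 (SD, n = 2), also without overlap. With 1 library left out, the change in share turned sign for 6 of the 12 pairs of a member and a line, and for Mir290a it stayed below 0 in both lines.

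**Figure D4:**
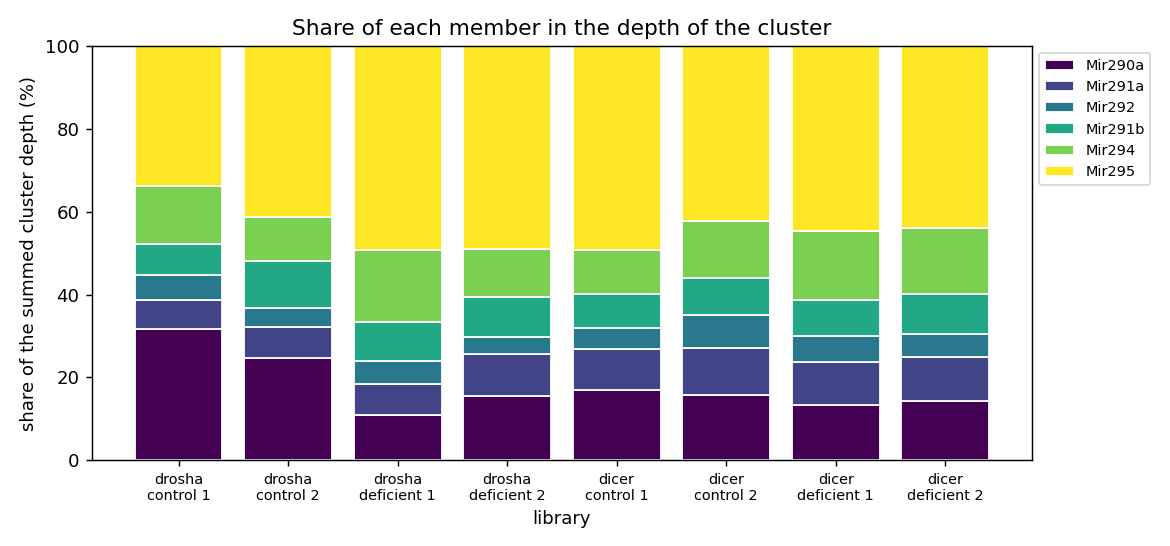
Share (%) of each member in the summed depth of the cluster in each of the 8 degradome libraries, stacked in transcript order with Mir290a at the bottom. The Mir290a block is 31.6% and 24.7% high in the Drosha-line controls and between 10.9% and 16.99% in the other 6 libraries.

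Minor sites, a few bases downstream of a main site, were listed for 5 members in the Drosha table. They lay 2 nt after the main site at Mir290a, Mir291a, Mir292 and Mir294 and 5 nt after it at Mir291b, and Mir295 had none. In control cells the Mir291b minor site was the deepest, at 1.29 and 2.16 RPM (37 and 63 reads). The sites 2 nt away had between 10 and 25 reads per control library, for example 25 and 19 reads at Mir290a. In neither Drosha-line control library did a minor site exceed 1.13% of the reads at its main and minor site together.

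In Drosha-deficient cells the minor sites were at or near the limit of counting. Mir290a had 2 and 1 reads, Mir291a 3 and 2, Mir292 3 and 2, Mir294 5 and 3, and Mir291b 7 and 4. Both groups summed over libraries, control depth was 15.1 times the Drosha-deficient depth at Mir290a (95% exact interval of the read counts 4.85 to 76.2), 7.64 times at Mir291a (2.99 to 24.9), 9.50 times at Mir292 (3.79 to 30.6), 9.38 times at Mir291b (5.03 to 19.4) and 2.84 times at Mir294 (1.22 to 7.37). The classifier accepted these shallow sites on the control libraries, the group in which they are higher, so their decrease may be partly set by that choice and is given as a description. By limma, 4 of the 5 sites passed the thresholds and the Mir294 site did not. At Mir294 the log2 fold change was −1.05 (SE 0.68, FDR = 0.19), although both control libraries, at 0.418 and 0.342 RPM, lay above both Drosha-deficient libraries, at 0.161 and 0.104 RPM. With a pseudocount of 1 RPM the FDR at the other 4 sites ran from 0.00075 to 0.022, but their log2 fold changes, from −1.19 to −0.59, missed the fold threshold. edgeR on whole reads, which does not use that pseudocount, called all 4 with mapped-read library sizes, from −3.82 at Mir290a to −2.88 at Mir291a, and all but Mir291a with TMM factors. The Mir291a minor site also lost its call without the first control library (FDR = 0.056 by limma) or the second Drosha-deficient one (FDR = 0.066).

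Relative to its main site, each minor site had intervals that overlapped between control and Drosha-deficient cells. At Mir291b the minor share was 0.899% (95% Wilson interval 0.653 to 1.24) and 1.13% (0.881 to 1.44) in control and 0.902% (0.438 to 1.85) and 0.452% (0.176 to 1.16) in Drosha-deficient cells. At Mir290a it was 0.141% and 0.154% in control and 0.222% and 0.0712% in Drosha-deficient cells, the last with an interval of 0.0126 to 0.402. At Mir294 both Drosha-deficient shares, 0.352% (0.150 to 0.820) and 0.287% (0.0978 to 0.841), lay above both control shares, 0.152% (0.0868 to 0.265) and 0.189% (0.103 to 0.348). At Mir292 both Drosha-deficient shares, 0.656% and 0.543%, lay below both control shares, 0.670% and 0.992%. The libraries thus separated in opposite directions at these 2 members, on 2 to 5 Drosha-deficient reads each, and a change in the use of minor sites was not detectable at this depth.

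The Mir291b minor site was the only one of the cluster listed in the Dicer table, and there its share was higher. It had 3.07 and 2.45 RPM in control and 2.47 and 2.35 RPM in Dicer-deficient cells, which is 1.83% and 1.98% of the reads in control and 1.52% and 1.62% in Dicer-deficient cells. The lowest Wilson bound in the Dicer-line controls, 1.51%, lies above the highest bound in the Drosha-line controls, 1.44%. These bounds cover counting error only, not the spread between libraries, and line, virus and sorting cannot be told apart here. Depth itself at this site did not pass the test between the controls (log2 difference −0.68, SE 0.50, FDR = 0.30 by limma). The sites 2 nt away have no values in the Dicer table and are not analysed there.

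**Figure D5:**
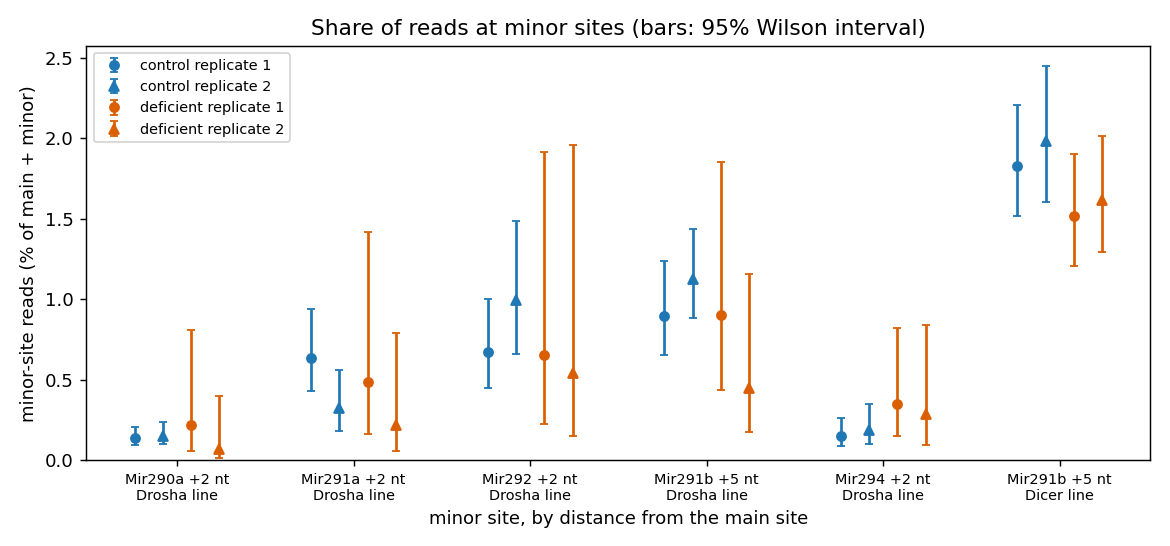
Reads at each minor site as a percentage of the reads at the main and minor site together, with 95% Wilson intervals, for each library (blue control, orange deficient, circles replicate 1 and triangles replicate 2). Control and Drosha-deficient intervals overlap at each site of the Drosha line, and the Mir291b site of the Dicer line lies highest, between 1.52% and 1.98%.

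No site of the cluster passed the test after loss of Dicer, which acts after the Drosha cut. The limma fit passed no site of the Dicer experiment at all (lowest FDR 0.46), so it cannot set the cluster apart from other sites. By its own edgeR comparison the paper reports a set of sites lost in Dicer-deficient cells. Mir290a had 348 and 215 RPM in control and 244 and 216 RPM in Dicer-deficient cells, and its log2 fold change was −0.25 (95% interval −1.07 to 0.57). Mir295 had 819 and 665 RPM in Dicer-deficient cells, inside the range of its controls, with a log2 fold change of −0.04 (−0.94 to 0.85). Mir291a had 190 and 163 RPM, Mir292 113 and 84.6 RPM, and Mir291b 160.2 and 143.3 RPM there, and their log2 fold changes were −0.00, −0.11 and 0.10. All these groups overlapped.

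Mir294 was the exception in its ranges. It had 219 and 185 RPM in control and 302 and 244 RPM after loss of Dicer, so both Dicer-deficient libraries lay above both controls, and the log2 fold change was 0.43 (95% interval −0.28 to 1.14, FDR = 0.60 by limma). Libraries failed to overlap in this way, in either direction, at 1 of 7 member sites and at 44.2% of all 4666 sites. limma called 0 of 7 member sites and 0% of all sites in the Dicer comparison, with 0 of 7 and 459 of 4666 at an unadjusted p under 0.05, and edgeR on whole reads with TMM factors also called 0 sites, with 414 at an unadjusted p under 0.05. With 2 libraries a group, the intervals at the main sites leave room for a doubling at Mir294 and for a drop below 0.5 times at Mir290a.

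The difference between the 2 losses was then tested at the shared sites. Line, drug, virus and sorting also differ between the 2 comparisons and cannot be told apart from the gene lost. The Drosha effect minus the Dicer effect was below 0 at all 7 member sites and passed an FDR of 0.05 at the 6 main sites, from −3.50 (SE 0.53, FDR = 0.023 by limma) at Mir290a to −2.22 (SE 0.45, FDR = 0.037) at Mir295. The minor site of Mir291b did not pass (−2.49, SE 0.70, FDR = 0.063). Of all 2595 shared sites, 1.7% were called lower in this sense. No member site passed once any 1 of both Drosha-line controls, both Drosha-deficient libraries or the first Dicer-deficient library was left out, or without the variance trend, while the difference stayed below 0 at every main site in each of these fits.

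Among the 10 listed relatives with a like seed (Mir302a to Mir302d, Mir17, Mir20a, Mir20b, Mir106a, Mir106b and Mir93), only Mir106b had a site. Its depth was 9.55 and 6.57 RPM in Drosha-line controls and 1.35 and 2.54 RPM in Drosha-deficient cells (log2 fold change −2.03, SE 0.41, FDR = 0.00055 by limma). In the Dicer line it had 17.02 and 8.66 RPM in control and 11.1 and 7.21 RPM in Dicer-deficient cells (−0.43, SE 0.45, FDR = 0.72). Its direction in both comparisons was that of Mir290a, at a far lower depth.

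Over the 8 libraries the 6 main sites followed each other, with pairwise Pearson correlations of log2(RPM + 0.1) from 0.90 to 0.98. These describe 8 libraries that share depth and groups. Among 2533 other sites with at least 1 RPM on average, the 3 most like the mean of the main sites were a site in the Mir9-2 stem-loop (chr13:83738881, r = 0.996), one annotated to Rpl41 (chr10:128549114, r = 0.991) and one outside annotated genes (chr17:27559559, r = 0.983). The Mir9-2 site had 1.74 and 1.37 RPM in Drosha-line controls, 0.290 and 0.278 RPM in Drosha-deficient cells and between 1.31 and 1.74 RPM in the Dicer line.

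Letters around the sites were not used in the choice of members, and no motif searched was present at all main sites. The motif CNNC, known to assist Drosha processing, began 16 to 18 nt downstream of the cut, counting the first captured base as 1, at 4 of the 6 main sites (Mir290a, Mir291a, Mir291b and Mir294). It was found on the transcript strand at 62.5% of the other miRNA sites and 19.2% of all sites of the Drosha table, so the members' share, 66.7%, lies near that of other miRNA sites. At Mir295 the 3 bases before the site are TCT, which equal the last 3 bases of the ligated linker read as DNA, as at 3.75% of the other miRNA sites and 30.8% of all sites. What part this match has in the depth of Mir295 was not tested.

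The first 30 bases captured occurred once in the chromosomes of GRCm38 at Mir290a, Mir291a, Mir292 and Mir291b. At Mir294 they occurred also on the minus strand of chromosome 19 and at Mir295 also on the plus strand of chromosome 5, and both second copies were kept when 50 bases were compared. Reads at Mir294 and Mir295 could thus map to 2 places, and their depth is uncertain to that extent. The order of depth, the fold changes and shares of these members and the ratio of Mir290a to Mir295 carry the same uncertainty.

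In RNA-seq the stem-loops were measured at like levels. The authors' mean over the 6 libraries, as log2 CPM, was 4.57 for Mir290a, 4.74 for Mir291a, 4.65 for Mir292, 4.74 for Mir291b, 4.47 for Mir294 and 4.600 for Mir295, at percentiles 65.6 to 68.1 of 22376 genes, with Mir293 at 4.27. Per kilobase of stem-loop, the levels ran from 8.05 (Mir294) to 8.46 (Mir295) on the log2 scale. Mir290a and Mir295 had 8.16 and 8.46 on this scale, but 4.57 and 4.600 before division by their annotated lengths of 83 and 69 nt. The RNA-seq reads were longer than these stem-loops, so values per kilobase are not read as differences between members. Mir292, whose main site was the shallowest in each of the 8 degradome libraries, had 8.26 per kilobase. Mir293, which had no pile-up site, had 7.91. Neither value is set against cleavage depth, since each combines control and Drosha-deficient cells. Mir290b and Mir292b are annotated on the opposite strand at Mir290a and Mir292, and whether the counting used strand is not given in the sources used here. These means combine control and Drosha-deficient cells, so a build-up of the primary transcript is not analysed here.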

How the data were processed

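Degradome-seq was measured in 8 mouse ESC libraries and RNA-seq in 6. The authors trimmed reads with Trimmomatic 0.38.0, aligned them to GRCm38 with STAR, counted read starts, and kept positions that a classifier trained on miRNA sites accepted in both control libraries. The authors deposited RPM of mapped reads for each library and site. For RNA-seq the authors deposited 1 log2 value per gene, the mean log2 CPM over all 6 libraries. Both kinds of table also hold the authors' own comparisons (log2 fold changes, F statistics, p-values and FDR from edgeR 3.26.1), which were not used.

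Sites were compared on log2(RPM + 0.1) with limma 3.58.1 (R 4.3.3; empirical Bayes with a mean-variance trend) over all 3919, 4666 or 2595 sites, with Benjamini-Hochberg adjustment (FDR). A site was called where FDR was under 0.05 and the log2 fold change past 1.5 in size, and for the Drosha minus Dicer difference by FDR alone. The main site of a member has its highest mean control RPM, and the other sites are minor. Sites were placed with GENCODE vM21 and RefSeq. RPM times the mapped reads inferred from the spacing of RPM values gave whole reads, which served for intervals and for edgeR 4.0.16 as an alternative. Depth was 28682300 to 34547609 mapped reads per library. Tested on simulated data, the fit found 100% of 200 changed sites of either table, with 0 false calls among 3719 and 4466 unchanged ones. All planted changes were well past the fold threshold, at deeper sites only, with the same normal spread at every site. The simulation therefore does not show how well smaller changes, or changes at shallow sites, are found in the real libraries. The members and lists were chosen with earlier results of these data known. Python 3.11.15 was used with scipy 1.17.1, pandas 2.3.3 and numpy 2.4.6.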

Additional observations from a re-analysis of the deposited data

Results flagged for a closer look

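The effect of losing Drosha differed from that of losing Dicer at the 6 main sites by a test of the difference itself (limma interaction over 8 libraries, FDR under 0.05). The Mir291b minor site did not pass (FDR = 0.063 by limma). Of all 2595 shared sites, 1.7% were called lower, and without the variance trend no member site passed. The Drosha effect minus the Dicer effect on the log2 scale was −3.50 at Mir290a, −2.38 at Mir291a, −2.71 at Mir292, −2.67 at Mir291b, −2.88 at Mir294 and −2.22 at Mir295. Each of the 2 comparisons has its own controls. Line, drug, virus and sorting differ between them together with the gene lost and cannot be told apart. The groups hold 2 libraries each, too few for a test of outlying libraries.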

How the results depend on the processing

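In the Drosha comparison 10 member sites and 1473 of all sites were called lower. A pseudocount of 1 RPM gave 6 and 548, sites of at least 1 RPM 6 (all main sites, since 5 minor sites drop out), centring 871 of all sites and edgeR with TMM 636. Leaving out a library gave 9 to 10 member sites and 907 to 1519 of all sites. The 6 main sites stayed called in every fit except edgeR with TMM (4).

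In the Dicer comparison no fit called a member site. Of all sites the replicate block called 186, and leaving out a library 0 to 14.

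The Drosha minus Dicer difference, 6 member sites and 44 of all sites lower, was the least stable. Without the variance trend it gave 0 and 2, with uniquely mapped library sizes 119 of all sites, with centring 123 and with the replicate block 934 of all sites and 7 member sites. Leaving out a library gave 0 to 7 member sites and 0 to 726 of all sites. The control line difference called 0 member sites in each fit and 408 of all sites, or 38 to 841 with a library left out. The cause of these moves was not tested.

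Replicate numbers are not stated to mark a shared batch. Deviations of same-numbered libraries correlated at 0.13 (Drosha line) and 0.53 (Dicer line) over sites, and the replicate block left the 10 member calls of the Drosha comparison in place. The change in a member's share ran, with 1 library left out, from −18.4 to −11.5 percentage points at Mir290a and from 7.85 to 15.4 at Mir295 in the Drosha line, and turned sign at Mir292, Mir291b and Mir294 there and at Mir291a, Mir292 and Mir295 in the Dicer line. With 2 libraries a group such a move cannot exceed the pooled SD, so the SD is no check of it. No called site changed sign. The edgeR fits were added after the data were seen. With 2 libraries a group, leaving one out assumes that the lone library varies like the others.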
